A study of Mus musculus with 4 samples.

Results

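Kinesins are the microtubule motor proteins, and together with the kinetochore and the spindle checkpoint they move chromosomes and watch over their attachment. The genes described here were the rows of the deposited table whose symbol begins with *Kif* followed by a digit or c, or with *Cenp*, *Bub1*, *Bub3*, *Mad1l* or *Mad2l*, together with the Aurora kinase genes, *Plk1* to *Plk4*, *Ndc80*, *Nuf2*, *Spc24*, *Spc25*, *Ttk*, *Incenp*, *Birc5* and *Cdca8*. This rule found 76 of 11598 genes, and it used names only. They fell into 15 genes of centromere chromatin and the inner kinetochore, 6 of the outer kinetochore, 7 of the spindle checkpoint, 5 Aurora kinase and passenger complex genes, 4 Polo-like kinases, 14 kinesins of the spindle and cell division, 22 kinesins of transport, cilia and other tasks, and 3 genes that share a name with these but have another main role. *Aurkc* and *Kif2b* were not analysed here.

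The values came from Ribo-seq, which counts ribosome-protected fragments (RPFs), in leptotene/zygotene spermatocytes sorted by FACS from testes of 12 dpp mice. There were 2 libraries from control mice, labelled wild type, and 2 from *Eef1g*-cKO mice on a C57BL/6J background. In these mice *Stra8*-GFPCre, expressed in male germ cells, removes exons 2 to 7 of a floxed *Eef1g*, and the controls were littermates. The authors counted 2479504 and 1384282 reads on genes for control but 223906 and 407979 for *Eef1g*-cKO, so that 1 read on a gene of 1 kb was worth 0.403 and 0.722 FPKM in control against 4.47 and 2.45 FPKM in *Eef1g*-cKO. RPF abundance holds both the amount of mRNA and its use by ribosomes, and matched RNA levels were not analysed here.

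As background, the inner kinetochore is built on nucleosomes that hold the histone variant CENP-A, and the outer kinetochore binds spindle microtubules. The spindle checkpoint kinases delay anaphase until every chromosome is attached, while the chromosomal passenger complex, with Aurora B as its kinase, releases wrong attachments. Spermatocytes in leptotene and zygotene have not yet assembled a meiotic spindle, whereas spermatogonia pass through mitosis, in which most of these proteins act.

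The targeted gene was examined first. *Eef1g*, which encodes a subunit of the translation elongation factor 1 complex, had 107 and 58 reads (27.6 and 26.8 FPKM) in control against 0 and 4 reads (0 and 6.26 FPKM) in *Eef1g*-cKO. Both *Eef1g*-cKO libraries lay below both control libraries, as the labels require. On the log2(FPKM + 1) scale it decreased by 3.39 (standard error 0.91), which passed limma's unadjusted p (0.0105) but not its adjusted p (0.0731), and passed edgeR's adjusted p on the recovered reads (0.00780).

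The labelled stage was then set against its markers. All 14 markers of leptotene and zygotene spermatocytes had reads in every library, and together they took 4773 and 3678 RPM (reads per 10⁶ counted reads) in control against 10018 and 9628 in *Eef1g*-cKO, with *Sycp3* the most abundant. By adjusted p, 7 of the 14 were increased and 0 decreased, with a median log2 fold change of 0.98. Once the trend on codon composition described below was removed, 3 were increased and 0 decreased, with a median of 0.67. The 12 spermatogonial markers moved the other way, with 3065 and 3611 RPM in control against 665 and 613 in *Eef1g*-cKO, *Uchl1* being the most abundant. By adjusted p, 7 of these 12 were decreased and 0 increased, with a median of -1.95, and *Gfra1*, *Nanos3*, *Lin28a* and *Id4* had 0 reads in 1 *Eef1g*-cKO library each. Fewer cells of a type and less RNA per cell cannot be told apart in bulk samples, and the part of these marker differences in the results below was not tested.

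Of the 76 genes, 72 reached a mean of 1 FPKM over the 4 libraries and were tested. A gene was called at p below 0.05 if its log2 fold change exceeded 1 in either direction. By unadjusted p, 6 of the 72 were increased (8.33%, against 7.32% of all 10475 genes tested) and 11 were decreased (15.3%, against 16.3%). By adjusted p, 3 were increased (4.17%, against 2.87%), namely *Cenpp*, *Bub1* and *Kif2a*, and 6 were decreased (8.33%, against 4.97%), namely *Aurkb*, *Incenp*, *Cenpj*, *Bub1b*, *Cenpa* and *Plk1*. The median log2 fold change was -0.21 over the 72 genes and -0.23 over all genes tested. Which of these medians was lower depended on the setting. The 72 genes were lower in edgeR (-0.15 against -0.05), without control replicate 2 (-0.31 against -0.22) and without either *Eef1g*-cKO library (-0.34 against -0.21 without replicate 1, -0.25 against -0.17 without replicate 2). They were higher in DESeq2 (-0.17 against -0.27) and without control replicate 1 (-0.21 against -0.25). Both *Eef1g*-cKO libraries were above both control libraries for 14 of the 72 (19.4%, against 24.6%) and below them for 32 (44.4%, against 37.7%).

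These counts moved with the test and with the libraries used. The quasi-likelihood test of edgeR on the recovered reads called 5 of 66 genes increased (7.58%, against 8.75% of 8056) and 10 decreased (15.2%, against 11.2%) by adjusted p. Leaving out either control library left 1 library in that group, and limma's calls by adjusted p were then lost over the whole table. Centring each library on its median shifted the median of all genes by 0.21, turned the adjusted calls over the table from 301 increased and 521 decreased to 521 and 383, and gave 4 and 4 of the 72 genes. Of the 9 genes called by adjusted p, edgeR kept all, DESeq2 lost *Cenpa*, centring lost *Plk1* and *Cenpa*, and a pseudocount of 0.1 kept *Incenp* alone. Untrended variance and thinning reads to the shallowest library each kept 0 of the 9. Fitting all genes without the filter lost *Plk1*, *Cenpa* and *Kif2a*, and a pseudocount of 5 lost *Kif2a*. A mean of at least 5 FPKM and the replicate block each kept all 9. Leaving out *Eef1g*-cKO replicate 1 lost *Kif2a* and *Bub1*, and leaving out *Eef1g*-cKO replicate 2 lost *Kif2a*, where each fit had 1 library left in that group.

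**Figure D1:**
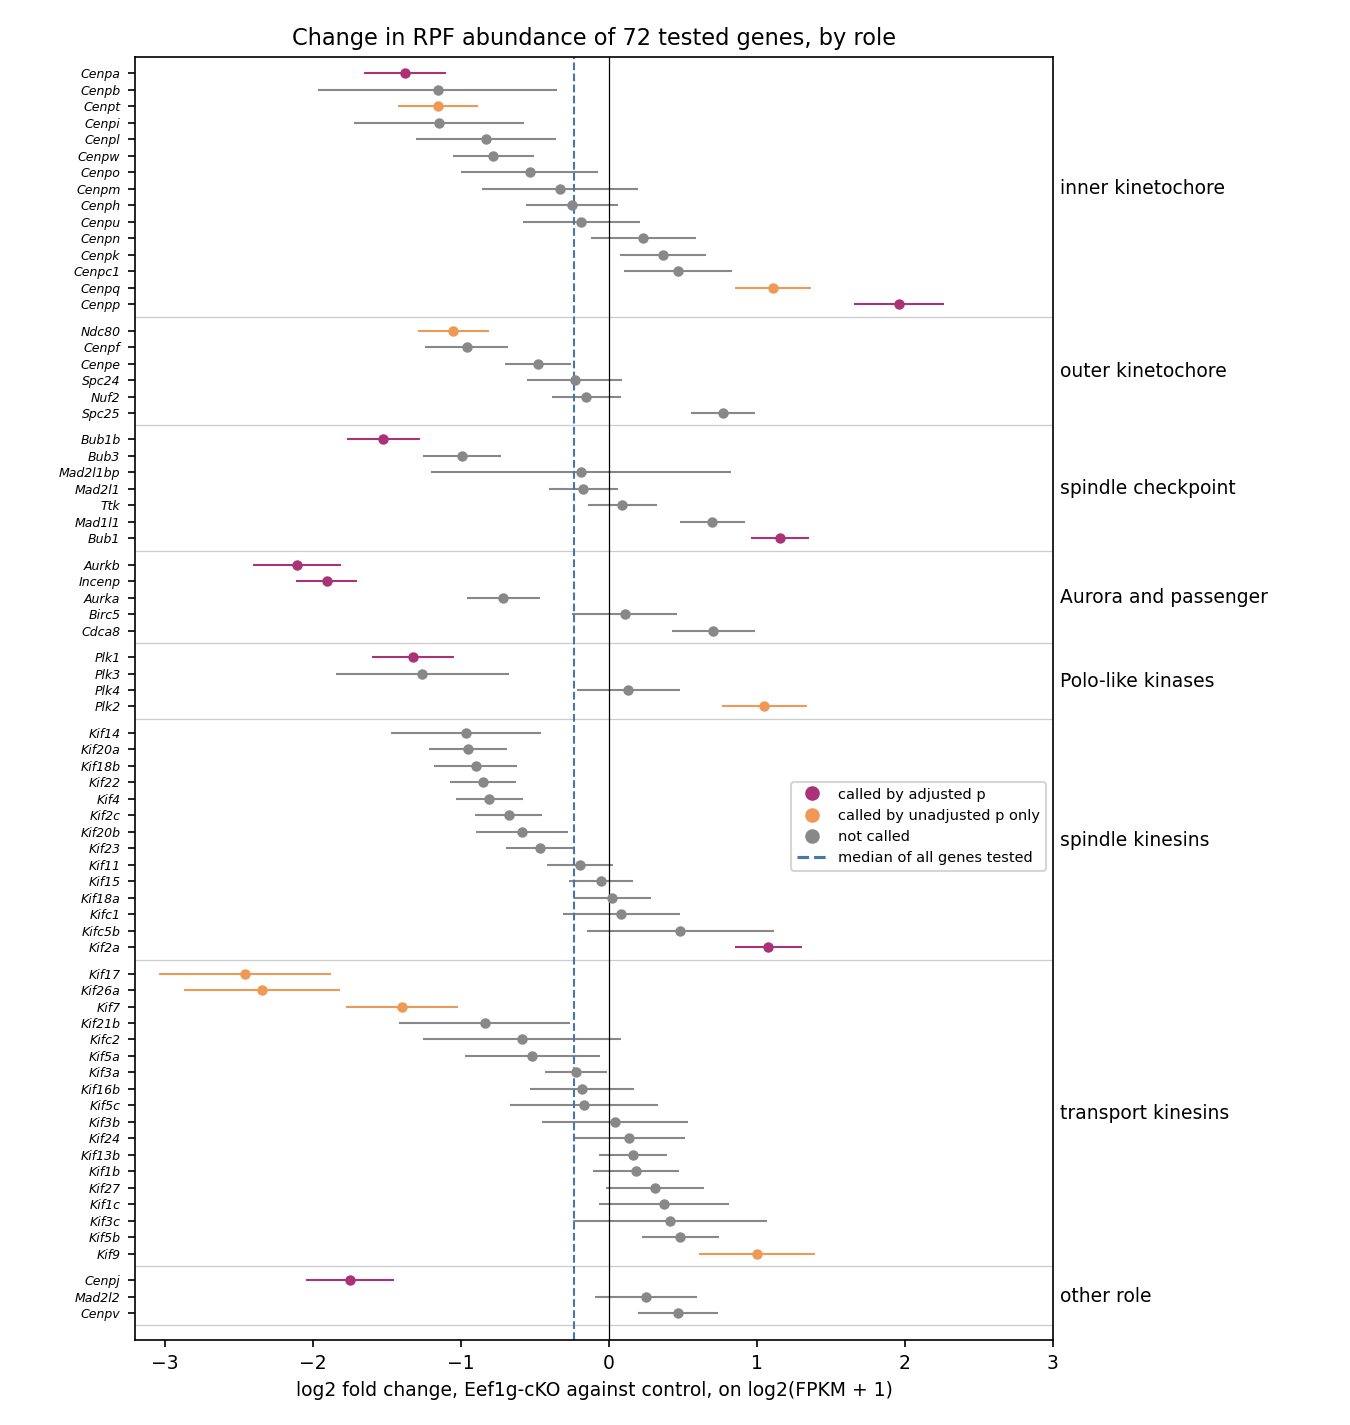
Log2 fold change in RPF abundance, *Eef1g*-cKO against control, on the log2(FPKM + 1) scale, for the 72 genes tested, grouped by role; points are limma estimates from 2 libraries per group and bars are 1 standard error. Each role holds genes on both sides of 0, with *Cenpp* at 1.96 and *Kif17* at -2.46 as the ends of the range.

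Together the 76 genes took 9987 and 10174 RPM in control, whereas the *Eef1g*-cKO libraries gave them 8289 and 8157 RPM. Both *Eef1g*-cKO libraries were lower, by a ratio of means of 0.816, and the exact permutation test, two-sided, gave p = 0.33, the smallest that 2 libraries against 2 allow. In summed FPKM, where long genes do not weigh more, the values were 2832 and 3152 in control against 2720 and 2607 in *Eef1g*-cKO, a ratio of 0.890. The whole table gave 0.893 with the small RNA gene *Rnu11*, which held most of its summed FPKM in control, and 1.33 without it. By role, the outer kinetochore had 2491 and 1940 RPM in control against 1349 and 1404 in *Eef1g*-cKO, of which *Cenpf*, a long gene, supplied 3674 of 6176 reads in control replicate 1. The spindle kinesins had 2589 and 2835 against 2014 and 2135, the Aurora and passenger genes 1099 and 1394 against 969 and 944, and the Polo-like kinases 270 and 378 against 205 and 233. The 3 genes with another main role had 165 and 156 RPM against 93.8 and 78.4, a ratio of 0.536, or 0.875 in summed FPKM. Without *Plk1* the summed FPKM of the Polo-like kinases lay the other way, at 26.6 and 24.97 against 37.2 and 46.8. In summed FPKM the ratio was 0.753 for the outer kinetochore and 0.749 for the spindle kinesins, while the Aurora and passenger genes overlapped between the groups (481 and 631 against 520 and 500, or 291 and 325 against 110 and 123 without *Cdca8*, the highest of them). The inner kinetochore overlapped between the groups in RPM (682 and 717 against 808 and 716) but not in summed FPKM, where both *Eef1g*-cKO libraries were higher (393 and 420 against 512 and 479, ratio 1.22). *Cenpp* alone carried that gap, as the sums without it were 334 and 387 against 334 and 305. The checkpoint genes (1253 and 1378 against 1460 and 1292) and the transport kinesins (1438 and 1375 against 1389 and 1355) overlapped between the groups in both units. Without *Bub1* the checkpoint genes no longer overlapped in summed FPKM, and both *Eef1g*-cKO libraries were lower (322 and 356 against 256 and 226).

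**Figure D2:**
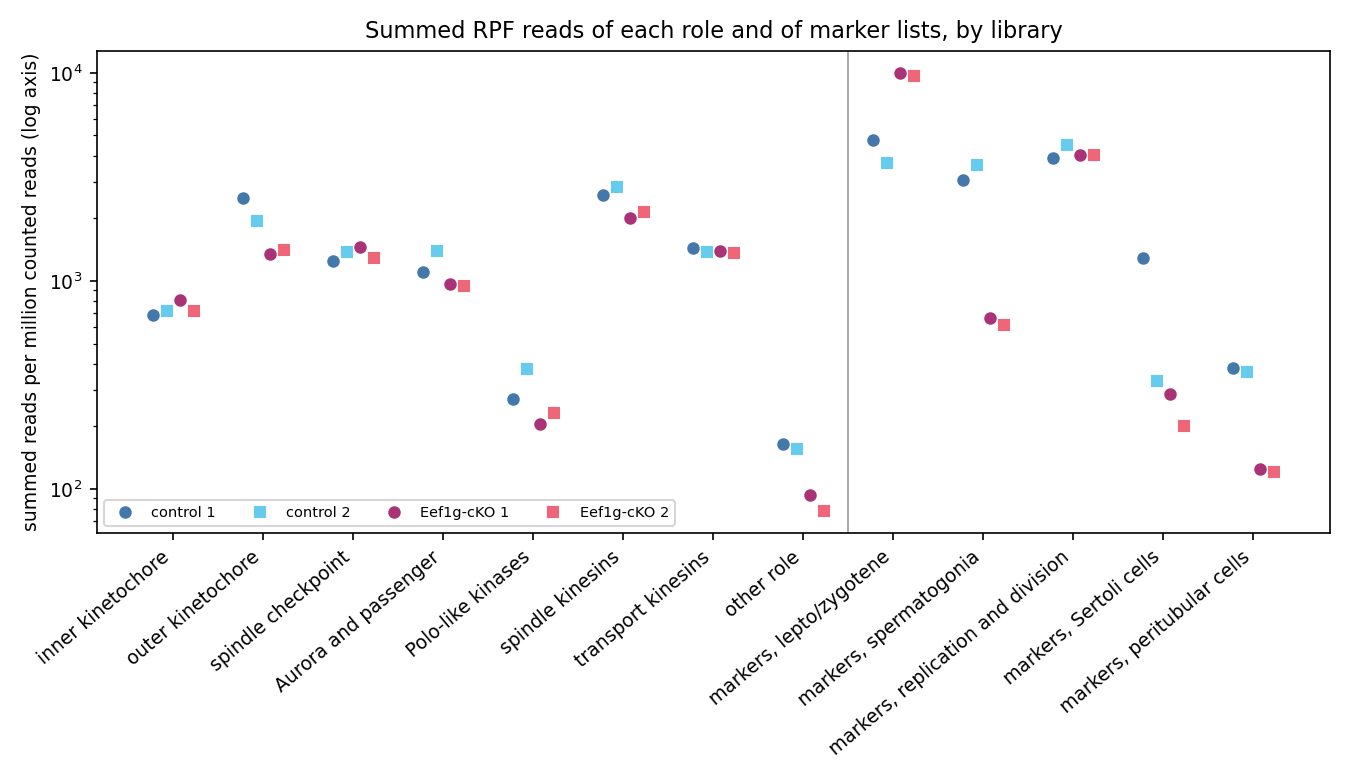
Summed RPM of RPFs (log axis) in each of the 4 libraries, for the 8 roles (left of the line) and for 5 lists of cell markers (right of the line). Spermatogonial markers stand at 3065 and 3611 in control and at 665 and 613 in *Eef1g*-cKO, a wider gap than that of any role.

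Among the 15 genes of centromere chromatin and the inner kinetochore, 1 was increased and 1 decreased by adjusted p. Each is 6.67%, against 2.87% increased and 4.97% decreased of all genes tested. The median log2 fold change of the 15 was -0.33. This median ranged from -0.57 without control replicate 2 to -0.15 without *Eef1g*-cKO replicate 2, and was -0.12 after median centring. *Cenpp*, a subunit of the CENP-O group that joins the kinetochore late in its assembly, gave 58.9 and 33.6 FPKM in control against 178 and 174 FPKM in *Eef1g*-cKO, from 154 and 49 reads against 42 and 75. Both *Eef1g*-cKO libraries were high and close to each other, while the control libraries were further apart. The log2 fold change was 1.96 (standard error 0.30, limma adjusted p = 0.0320), and it was the largest increase of the 72 genes. *Cenpq*, a partner of *Cenpp* in the same group, gave 40.3 and 42.1 FPKM in control against 74.3 and 109 in *Eef1g*-cKO. Its log2 fold change of 1.11 passed by unadjusted p only in limma (adjusted p = 0.0561). Both count models called it by adjusted p (edgeR adjusted p = 0.00410, DESeq2 adjusted p = 0.0280). The other genes of this group were not called, with *Cenpo* at -0.54 and *Cenpu* at -0.19. *Itgb3bp*, which encodes its subunit CENP-R and lies outside the naming rule, had 42 and 10 reads in control against 9 and 8 in *Eef1g*-cKO. In FPKM both *Eef1g*-cKO libraries were above both control libraries, at 14.7 and 7.16 against 6.19 and 2.64 (log2 fold change 1.15, limma adjusted p = 0.219).

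*Cenpa*, the histone H3 variant that marks the centromere, gave 53.1 and 79.0 FPKM in control against 25.4 and 23.3 in *Eef1g*-cKO, from 208 and 173 reads against 9 and 15. The groups did not overlap, and the fall of 1.38 on the log2 scale passed adjusted p narrowly (log2 fold change -1.38, standard error 0.28, limma adjusted p = 0.0451) and lost it in DESeq2 (0.0587). *Cenpt*, which links the centromere to the outer kinetochore, gave 48.6 and 61.7 FPKM in control against 27.8 and 20.8 in *Eef1g*-cKO. Its log2 fold change of -1.15 passed by unadjusted p only in limma (adjusted p = 0.0569). By adjusted p it was called in edgeR (0.0234) but not in DESeq2 (0.123). *Cenph*, of the complex that binds CENP-C, had one of the highest levels in the group, with 59.2 and 75.2 FPKM in control against 72.1 and 43.5 in *Eef1g*-cKO. Its libraries overlapped, and its log2 fold change was -0.25, or 0.11 without *Eef1g*-cKO replicate 2. The remaining 10 genes were not called and ranged from -1.16 for *Cenpb*, which had 17 and 19 reads in control but 2 and 0 in *Eef1g*-cKO (rate ratio 2.94, exact interval 0.758 to 25.2), to 0.47 for *Cenpc1*.

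None of the 6 outer kinetochore genes was called by limma's adjusted p. By unadjusted p 1 was decreased (16.7%, against 16.3% of all genes tested) and 0 increased (against 7.32%). With the same threshold on the fold change, edgeR's adjusted p called 0. The 4 subunits of the NDC80 complex, the main microtubule coupler, include 1 called by unadjusted p. *Ndc80* itself gave 89.6 and 111 FPKM in control against 42.6 and 53.5 in *Eef1g*-cKO, a log2 fold change of -1.05 (limma standard error 0.24, unadjusted p = 0.00484, adjusted p = 0.0540). This call fell below the fold threshold in edgeR, in DESeq2 and after median centring. Its direct partner *Nuf2* gave 72.3 and 56.8 FPKM in control against 61.3 and 54.0 in *Eef1g*-cKO, with overlapping libraries and a log2 fold change of -0.15 that turned to 0.06 after median centring. *Spc24* gave 54.1 and 90.5 FPKM against 69.5 and 50.9, also overlapping, at -0.23, and 0.22 once the trend on codon composition described below was removed. *Spc25*, which pairs with *Spc24*, was not called either, at 42.8 and 44.8 FPKM in control against 81.9 and 69.7 in *Eef1g*-cKO, with both *Eef1g*-cKO libraries above both control libraries (log2 fold change 0.77, limma adjusted p = 0.0780).

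RPFs of the genes for the large fibrous proteins of the outer kinetochore lay below control in both *Eef1g*-cKO libraries. *Cenpf*, a microtubule-binding protein made in the later cell cycle, gave 133 and 83.9 FPKM in control against 51.8 and 56.0 in *Eef1g*-cKO, and at 129 and 254 reads it had the most *Eef1g*-cKO reads of this role. Its log2 fold change of -0.96 was just under the fold threshold, with a limma adjusted p of 0.0840 and an edgeR adjusted p of 0.00838. *Cenpe*, the kinesin that carries chromosomes to the spindle equator, gave 63.6 and 55.5 FPKM against 39.4 and 45.5, at -0.48 (limma adjusted p = 0.211).

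The spindle checkpoint held a pair of related genes that were called in opposite directions. By adjusted p, 1 of its 7 genes was increased and 1 decreased, each 14.3%, against 2.87% and 4.97% of all genes tested. *Bub1*, the kinase that recruits checkpoint proteins and protects centromeric cohesion, gave 72.1 and 74.8 FPKM in control against 173 and 157 in *Eef1g*-cKO, from 775 and 449 reads against 168 and 278. The gap between the groups was far wider than the spread within either. The increase was 1.16 on the log2 scale (standard error 0.19, limma adjusted p = 0.0352, edgeR adjusted p = 0.000343). Once the trend on codon composition was removed it was 0.59 (limma adjusted p = 0.126), and the call was lost. *Bub1b*, which encodes the related BUBR1 that inhibits the anaphase-promoting complex, gave 139 and 153 FPKM in control against 59.6 and 42.1 in *Eef1g*-cKO, from 1264 and 777 reads against 49 and 63. Here both *Eef1g*-cKO libraries were low, with a log2 fold change of -1.52 (limma standard error 0.25, adjusted p = 0.0337, edgeR adjusted p = 0.000227).

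Because both genes were read in the same libraries, their ratio does not depend on how libraries are scaled. A trend on codon composition need not cancel in it, since 36.8% of *Bub1* codons and 54.3% of *Bub1b* codons end in G or C. With that trend removed, the log2 fold changes were 0.59 and -1.73. *Bub1* held 38.0% (95% Clopper-Pearson interval 35.9 to 40.2) and 36.6% (33.9 to 39.4) of the reads of *Bub1* and *Bub1b* together in control, and 77.4% (71.3 to 82.8) and 81.5% (77.0 to 85.5) in *Eef1g*-cKO. Counted per length, the FPKM shares were 34.2% and 32.8% against 74.4% and 78.9%, so the order of the pair turned over in both *Eef1g*-cKO libraries. These intervals, and every other interval and floor given here, cover counting error only.

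The other checkpoint genes were not called. *Bub3*, which carries BUB1 and BUBR1 to the kinetochore, gave 39.6 and 53.8 FPKM in control against 21.7 and 23.9 in *Eef1g*-cKO, at -0.99 (limma unadjusted p = 0.0101, adjusted p = 0.0720). *Mad1l1*, the kinetochore receptor of MAD2, gave 32.8 and 35.6 FPKM against 57.5 and 54.8, at 0.70 (limma adjusted p = 0.0984), and passed as increased, at 1.13, once the trend on codon composition was removed (limma adjusted p = 0.0328). *Mad2l1*, the MAD2 protein of the checkpoint signal, gave 54.7 and 45.2 FPKM against 41.4 and 46.9, at -0.17 and at 0.04 after median centring. *Ttk*, the MPS1 kinase that starts the signal, gave 52.7 and 66.7 FPKM against 68.8 and 58.2, at 0.09 and at -0.35 without the codon trend. The libraries of *Mad2l1* and *Ttk* overlapped between the groups. *Mad2l1bp*, which helps to switch the signal off, had 9 and 3 reads in control against 2 and 0 in *Eef1g*-cKO, a control rate 0.981 times the *Eef1g*-cKO rate with an exact interval from 0.218 to 9.03, and its fitted -0.19 became 0.03 after median centring and 0.46 in DESeq2.

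The promoters of 3 called genes are shown. *Bub1* (up) and *Bub1b* (down) are related genes called in opposite directions, and *Plk1* (down) is a decreased gene of another family. Each run holds the 250 bases before the start site in the RefSeq promoter table of GRCm38.p6, 5′ to 3′ on the strand of the gene. Capitals mark the letters CCAAT or its reverse complement ATTGG, the CCAAT box known from many cell cycle genes. The windows were also searched for TTTGAA and its reverse complement TTCAAA, a form of the cell cycle homology region. None of these 3 windows holds TTTGAA or TTCAAA. Other forms of that region were not searched for. The run of *Bub1b* ends a few bases inside the span given for the gene, since genes can have more than 1 start site.
*Bub1*, chr2:127831860-127832109, minus strand: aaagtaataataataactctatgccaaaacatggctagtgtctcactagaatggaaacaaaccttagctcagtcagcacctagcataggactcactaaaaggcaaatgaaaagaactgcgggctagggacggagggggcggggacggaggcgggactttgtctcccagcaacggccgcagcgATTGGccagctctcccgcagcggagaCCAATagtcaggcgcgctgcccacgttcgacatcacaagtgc
*Bub1b*, chr2:118597961-118598210, plus strand: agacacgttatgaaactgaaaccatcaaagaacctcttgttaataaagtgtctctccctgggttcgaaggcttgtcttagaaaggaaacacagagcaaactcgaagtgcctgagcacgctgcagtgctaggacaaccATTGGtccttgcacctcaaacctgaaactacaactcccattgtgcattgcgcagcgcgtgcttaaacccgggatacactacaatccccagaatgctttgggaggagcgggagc
*Plk1*, chr7:122159185-122159434, plus strand: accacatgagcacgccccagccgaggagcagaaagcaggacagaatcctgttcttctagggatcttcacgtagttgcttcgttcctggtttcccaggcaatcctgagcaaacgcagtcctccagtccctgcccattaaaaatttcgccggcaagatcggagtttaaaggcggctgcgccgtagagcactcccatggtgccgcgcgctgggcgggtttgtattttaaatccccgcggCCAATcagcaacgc

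Of the 76 genes, 67 matched an entry of the promoter table. CCAAT or its reverse complement stood in at least 1 window of 33 of them (49.3%), against 37.5% of 27025 genes in the promoter table, and TTTGAA or its reverse complement in 11 (16.4%), against 18.3%. Among the genes called by unadjusted p, CCAAT was found in 2 of the 6 increased and in 3 of the 9 decreased ones with an entry, and TTTGAA in 0 of either. Among the 48 that were tested and not called, CCAAT was found in 27 (56.3%) and TTTGAA in 10 (20.8%). A match is a description of the letters and not of a bound factor.

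Of the 5 Aurora kinase and passenger complex genes, 2 were decreased by adjusted p (40%, against 4.97% of all genes tested) and 0 increased (against 2.87%). Both decreased genes belong to the chromosomal passenger complex. *Aurkb*, its kinase, gave 50.1 and 71.2 FPKM in control against 11.4 and 15.0 in *Eef1g*-cKO, from 243 and 193 reads against 5 and 12. *Incenp*, the scaffold that binds and activates Aurora B, gave 156 and 172 FPKM in control against 40.3 and 45.7 in *Eef1g*-cKO, from 1242 and 765 reads against 29 and 60. In both genes the *Eef1g*-cKO libraries were low and close together. *Aurkb* fell by 2.11 on the log2 scale (log2 fold change -2.11, standard error 0.30, limma adjusted p = 0.0297) and *Incenp* fell by 1.91 (log2 fold change -1.91, standard error 0.21, limma adjusted p = 0.0225), and edgeR called both (adjusted p = 0.000676 and 2.35e-05).

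The remaining subunits, which target the complex to the centromere, were not called. *Cdca8*, which encodes borealin, was the most abundant of the 76 genes per length, with 189 and 305 FPKM in control against 409 and 377 in *Eef1g*-cKO. Both *Eef1g*-cKO libraries were above both control libraries, and the log2 fold change was 0.71 (standard error 0.28, limma adjusted p = 0.157, edgeR adjusted p = 0.0233). *Birc5*, which encodes survivin, gave 16.1 and 29.4 FPKM against 24.8 and 22.2, with overlapping libraries, at 0.11 and at -0.31 without control replicate 1. *Aurka*, the Aurora kinase of the spindle poles and no part of the complex, gave 69.6 and 53.0 FPKM against 33.9 and 39.7, a log2 fold change of -0.71 (limma adjusted p = 0.121). Of the reads of *Aurka* and *Aurkb* together, *Aurkb* held 41.6% (37.6 to 45.7) and 57.1% (51.6 to 62.4) in control against 25.0% (8.66 to 49.1) and 27.3% (15.0 to 42.8) in *Eef1g*-cKO, from 20 and 44 reads of the pair, so the intervals of control replicate 1 and the *Eef1g*-cKO libraries overlapped.

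The Polo-like kinases also differed in balance between the groups. By adjusted p, 1 of the 4 was decreased (25%, against 4.97% of all genes tested) and 0 increased (against 2.87%). *Plk1*, the mitotic Polo kinase, gave 86.4 and 137 FPKM in control against 42.6 and 43.4 in *Eef1g*-cKO, from 472 and 418 reads against 21 and 39, and fell by 1.32 (log2 fold change -1.32, standard error 0.28, limma adjusted p = 0.0482). Without control replicate 2 the log2 fold change was -0.99, just under the fold threshold, and the call was lost. *Plk2*, a stress-responsive member of the family, gave 15.8 and 13.7 FPKM in control against 27.1 and 36.8 in *Eef1g*-cKO, at 1.05. In limma it passed by unadjusted p only (adjusted p = 0.0765), as in DESeq2 (adjusted p = 0.0801), while edgeR called it (adjusted p = 0.0161). *Plk4*, which starts centriole duplication, gave 8.07 and 9.16 FPKM against 10.1 and 8.98, at 0.13 and at -0.42 without the codon trend. *Plk3*, a stress kinase, had 16 and 7 reads in control against 0 and 1 in *Eef1g*-cKO, a 3.76-fold higher rate in control with an exact interval from 0.611 to 155. As a share of the reads of all 4 kinases, *Plk1* went from 70.6% (66.9 to 74.0) and 79.9% (76.2 to 83.3) to 45.7% (30.9 to 61.0) and 41.1% (31.1 to 51.6), and *Plk2* from 16.4% (13.7 to 19.5) and 10.1% (7.68 to 13.1) to 37.0% (23.2 to 52.5) and 44.2% (34.0 to 54.8). In *Eef1g*-cKO the intervals of *Plk1* and *Plk2* overlapped, whereas in control they were far apart.

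**Figure D3:**
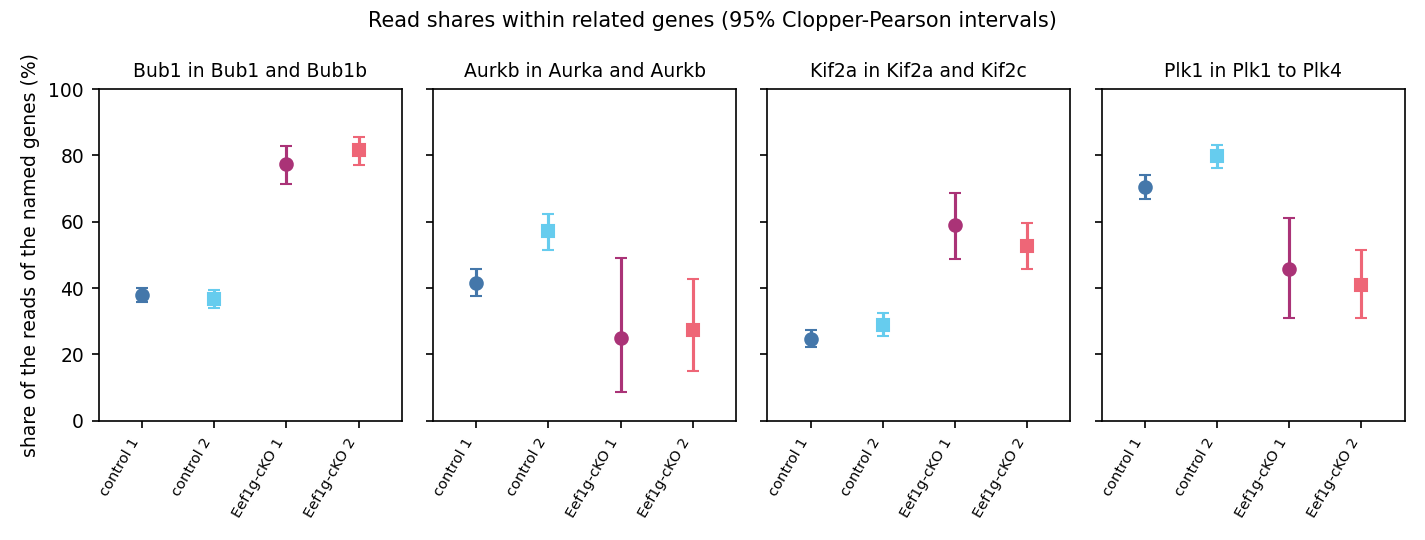
Share of reads held by 1 gene among its relatives in each of the 4 libraries, with 95% Clopper-Pearson intervals: *Bub1* among *Bub1* and *Bub1b*, *Aurkb* among *Aurka* and *Aurkb*, *Kif2a* among *Kif2a* and *Kif2c*, and *Plk1* among *Plk1* to *Plk4*. *Bub1* moves from 38.0% and 36.6% to 77.4% and 81.5%, with no overlap of the intervals between the groups.

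The 14 kinesins of the spindle and of cell division had a median log2 fold change of -0.53 (-0.31 after median centring). Of these, 9 were lower in both *Eef1g*-cKO libraries than in both control libraries (64.3%, against 37.7% of all 10475 genes tested). By adjusted p, however, 1 was increased (7.14%, against 2.87%) and 0 decreased (against 4.97%). The increased gene was *Kif2a*, a kinesin that shortens microtubules at spindle poles and along axons rather than walking on them. It gave 26.9 and 32.3 FPKM in control against 62.6 and 64.1 in *Eef1g*-cKO, from 281 and 188 reads against 59 and 110. The increase was 1.08 (standard error 0.23, limma adjusted p = 0.0482, edgeR adjusted p = 0.00117). Once the trend on codon composition was removed it was 0.52 (limma adjusted p = 0.246), and the call was lost. Its relative *Kif2c*, which encodes the centromeric MCAK, gave 112 and 108 FPKM in control against 59.4 and 78.8 in *Eef1g*-cKO, at -0.68 (limma adjusted p = 0.113). Of the reads of the pair, *Kif2a* held 24.8% (22.3 to 27.4) and 28.9% (25.5 to 32.6) in control against 59.0% (48.7 to 68.7) and 52.6% (45.6 to 59.6) in *Eef1g*-cKO, and the intervals did not overlap between the groups.

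The other spindle kinesins were not called. *Kif22*, which pushes chromosome arms away from the poles, gave 98.3 and 126 FPKM in control against 58.4 and 64.1 in *Eef1g*-cKO (log2 fold change -0.85, limma adjusted p = 0.0696). *Kif23*, a subunit of the midzone complex centralspindlin, gave 85.3 and 99.6 FPKM against 75.6 and 58.7 (log2 fold change -0.46, limma adjusted p = 0.236). The remaining 10 ranged from -0.96 for *Kif14* to 0.48 for *Kifc5b*. *Kifc1* and *Kifc5b* are near-identical copies, and how the authors' counting divided reads between them was not given in the sources used here, so both values are uncertain.

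Of the 22 transport, cilium and other kinesins, 18 were tested and 0 were called by limma's adjusted p. By unadjusted p 1 was increased (5.56%, against 7.32% of all genes tested) and 3 were decreased (16.7%, against 16.3%). By adjusted p edgeR called 0 increased (against 8.75%) and 3 decreased (18.75%, against 11.2%). The median of the 18 was -0.06, and turned to 0.16 at a mean of at least 5 FPKM, 0.15 after median centring and 0.11 without control replicate 1. *Kif3a*, the motor that builds cilia, had the highest level, with 55.6 and 57.3 FPKM in control against 49.2 and 47.2 in *Eef1g*-cKO (log2 fold change -0.22, limma adjusted p = 0.498). It held 83.8% and 90.9% of the reads of *Kif3a*, *Kif3b* and *Kif3c* in control against 84.5% and 83.3% in *Eef1g*-cKO. *Kif13b*, a transport kinesin, gave 35.6 and 43.1 FPKM against 43.8 and 44.2, and *Kif5b*, the widely used conventional kinesin, 19.2 and 17.6 against 27.4 and 24.8 (log2 fold change 0.48, limma adjusted p = 0.262). *Kif5b* held 64.8% (60.1 to 69.2) and 69.0% (62.3 to 75.2) of the reads of *Kif5a*, *Kif5b* and *Kif5c* in control against 80.4% (66.1 to 90.6) and 80.3% (69.5 to 88.5) in *Eef1g*-cKO, where *Kif5a* had 7 and 9 reads.

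The called kinesins of this role were all low in level. *Kif7*, a regulator of Hedgehog signalling in cilia, gave 13.1 and 19.3 FPKM in control against 4.93 and 5.96 in *Eef1g*-cKO, at -1.40 (limma adjusted p = 0.0733, edgeR adjusted p = 0.0184). *Kif17*, a motor of dendrites and cilia that also occurs in male germ cells, had 64 and 43 reads in control against 0 and 2 in *Eef1g*-cKO, and *Kif26a*, a kinesin without motor activity, had 86 and 58 reads against 1 and 0. Per counted read, control exceeded *Eef1g*-cKO 8.75-fold for *Kif17* (95% exact interval 2.36 to 73.2) and 23.5-fold for *Kif26a* (4.16 to 937), and these wide intervals show how few reads the *Eef1g*-cKO libraries hold for them. *Kif9*, a kinesin of the sperm flagellum, gave 8.79 and 5.59 FPKM in control against 17.9 and 12.6 in *Eef1g*-cKO, and at 1.00 it sat on the fold threshold (limma unadjusted p = 0.0445, adjusted p = 0.155). Of the 4 kinesins left untested, *Kif1a* had 14 and 8 reads in control against 0 and 0 in *Eef1g*-cKO, which is at least 1.20-fold lower with a floor of 3 reads over the group, and *Kif6*, *Kif13a* and *Kif21a* had at most 14 reads in any library.

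**Figure D4:**
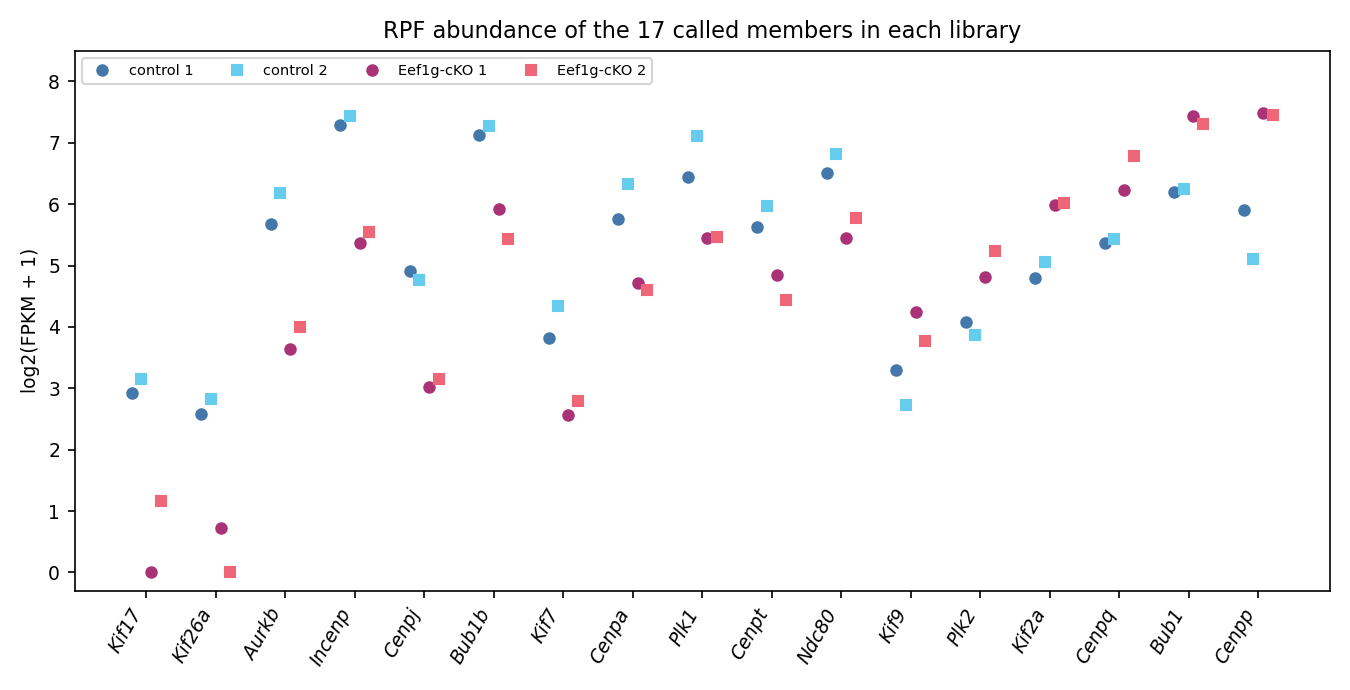
RPF abundance as log2(FPKM + 1) in each of the 4 libraries for the 17 genes called by unadjusted p, ordered by log2 fold change. In each gene both *Eef1g*-cKO libraries lie on the same side of both control libraries, which the calls themselves favour; *Kif17* and *Kif26a* rest on 0 to 2 reads per *Eef1g*-cKO library.

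*Cenpj*, *Cenpv* and *Mad2l2* carry names of the group but act elsewhere. *Cenpj*, which encodes the centriole protein CPAP, gave 29.1 and 26.2 FPKM in control against 7.17 and 7.87 in *Eef1g*-cKO, from 315 and 158 reads against 7 and 14. The groups were well apart, and it fell by 1.75 (log2 fold change -1.75, standard error 0.30, limma adjusted p = 0.0352, edgeR adjusted p = 0.00105). *Cenpv* gave 21.8 and 20.96 FPKM against 34.6 and 26.1 (log2 fold change 0.47, limma adjusted p = 0.286). *Mad2l2*, a subunit of translesion polymerase zeta and of the shieldin complex, gave 12.9 and 16.5 FPKM against 21.9 and 14.0, with overlapping libraries, at 0.25 and at -0.05 without *Eef1g*-cKO replicate 1.

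Genes that work with these but lie outside the naming rule were followed as 2 lists. Of 25 further kinetochore and centromere genes in the table, 1 was increased and 0 decreased by adjusted p, with a median log2 fold change of 0.05. The increased gene was *Oip5*, a subunit of the MIS18 complex that prepares centromeres for new CENP-A, with 17.6 and 19.5 FPKM in control against 91.8 and 66.1 in *Eef1g*-cKO (log2 fold change 2.01, limma adjusted p = 0.0283), opposite in direction to *Cenpa*. Their summed reads were level, at 1800 and 1701 RPM in control against 1822 and 1716 in *Eef1g*-cKO. Of 25 genes of spindle assembly and the midzone, limma called 0 by adjusted p, and 1 increased and 0 decreased by unadjusted p, while edgeR called 1 increased and 0 decreased by adjusted p. Their median was -0.21, with 4830 and 5165 RPM in control against 3997 and 4270 in *Eef1g*-cKO.

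Markers of proliferation and of other testis cells were read beside these results. The 12 genes of DNA replication and mitotic division took 3904 and 4503 RPM in control against 4046 and 4015 in *Eef1g*-cKO, with *Top2a* the most abundant. *Top2a* supplied 3879 of 9680 and 2243 of 6234 reads in control, and 527 of 906 and 1012 of 1638 in *Eef1g*-cKO. Both *Eef1g*-cKO libraries lay below both control libraries for 8 of the 12 (66.7%, against 37.7% of all genes tested) and above them for 2 (16.7%, against 24.6%). By adjusted p 0 of the 12 were increased and 2 decreased (*Mcm2* and *Ccnb1*). Their median was -0.47, lower than that of all genes. Of 12 Sertoli cell markers, 10 were in the table, with 1286 and 329 RPM in control against 286 and 201 in *Eef1g*-cKO, *Clu* being the most abundant and *Gata4* at 0 in both *Eef1g*-cKO libraries; 0 were called by limma's adjusted p, 0 increased and 3 decreased by unadjusted p, and edgeR called 4 decreased by adjusted p. Control replicate 1 thus stood apart from the other 3 libraries in these markers. Of 9 peritubular markers, 8 were in the table (383 and 365 RPM in control, 125 and 120 in *Eef1g*-cKO, *Acta2* the most abundant). All 8 had a log2 fold change below 0, with a median of -1.47. In limma 1 was decreased by adjusted p and 5 by unadjusted p, edgeR called 4 decreased by adjusted p, and 0 were increased in either.

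Markers of later germ cells and of other somatic cells had few reads, apart from the pachytene markers. Of 12 pachytene markers, 7 were in the table (971 and 788 RPM in control, 1983 and 2074 in *Eef1g*-cKO, *Hist1h1t* the most abundant), with 2 increased and 0 decreased by adjusted p. *Hist1h1t* supplied 240 of 444 and 406 of 846 of these reads in *Eef1g*-cKO, against 707 of 2407 and 306 of 1091 in control. By log2 fold change 4 of the 7 were higher and 3 lower, namely *Mns1* (-0.44), *Adam2* (-0.94) and *Piwil1* (-1.46). The paper found no staining for H1T, the protein of *Hist1h1t*, and no pachytene spermatocytes in older *Eef1g*-cKO testes. Whether these reads came from pachytene cells was not tested. Spermatid markers (3 of 12 in the table, *Tnp1* the most abundant and *Prm2* at 0 in both *Eef1g*-cKO libraries) summed to 16 and 40 reads in control against 0 and 4 in *Eef1g*-cKO. Leydig cell markers (3 of 7, *Cyp11a1* the most abundant in control and, with *Hsd3b1*, at 0 in both *Eef1g*-cKO libraries) summed to 18 and 16 reads against 2 and 2, and the macrophage markers (*Cd14* alone of 7) to 4 and 6 against 0 and 1. In RPM the groups overlapped for spermatid markers (6.45 and 28.9 in control against 0 and 9.80 in *Eef1g*-cKO). They also overlapped for Leydig cell markers (7.26 and 11.6 against 8.93 and 4.90) and for *Cd14* (1.61 and 4.33 against 0 and 2.45). The part of these cell types in the results was not tested.

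Fold changes also followed codon composition. The share of codons of the longest coding sequence (GENCODE release M21) that end in G or C had a median of 41.3% in the 6 genes increased by unadjusted p, 66.1% in the 11 decreased and 56.2% in the 55 that were tested and not called. *Bub1* stood at 36.8%, *Cenpq* at 33.5% and *Kif2a* at 37.5%, while *Aurkb* stood at 71.6%, *Plk1* at 72.3% and *Kif17* at 74.1%. Across the 72 genes, which share the same 4 libraries and are not independent, Spearman's rho between this share and the log2 fold change was -0.27, and across 10126 genes of the table it was -0.30, so the relation was as wide as the table. Against the median of the 72 genes (56.3%), 4 of the 6 increased genes lay below it and *Plk2* and *Kif9* above, while 7 of the 11 decreased genes lay above it and *Cenpj*, *Cenpt*, *Ndc80* and *Bub1b* below.

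Removing each library's trend on this share, an alternative chosen after seeing the data, changed which genes were called. It left 2 of the 72 increased by adjusted p, *Cenpp* and *Mad1l1*, and 9 decreased, against 311 and 606 of the 10126 genes. The median of the 72 moved to -0.46, against -0.29 over the 10126 genes. *Bub1* then stood at 0.59 (limma adjusted p = 0.126), *Kif2a* at 0.52 (0.246), *Cenpq* at 0.51 (0.287) and *Plk1* at -0.92 (0.0678), none of them called, while *Aurkb* (-1.73), *Incenp* (-1.85), *Bub1b* (-1.73), *Cenpa* (-1.12) and *Cenpj* (-2.24) were still decreased by adjusted p. *Ndc80* (-1.41, limma adjusted p = 0.0328) and *Cenpf* (-1.39, 0.0349) now passed as decreased, as did *Cenpt* (-1.47, 0.0348) and *Kif4* (-1.18, 0.0399).

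**Figure D5:**
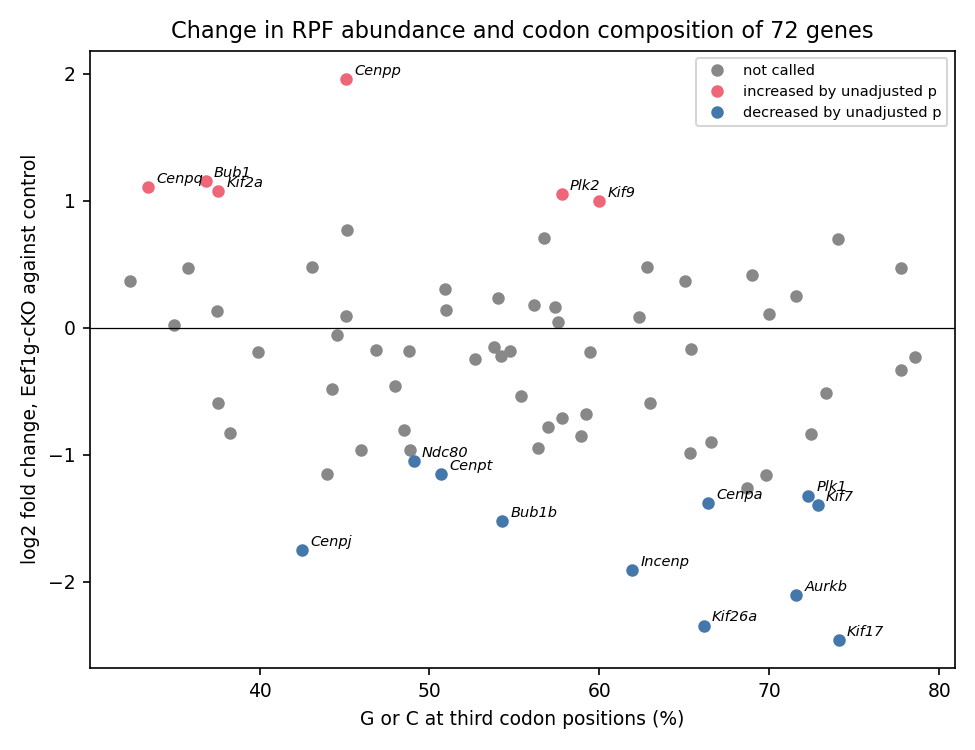
Log2 fold change in RPF abundance, *Eef1g*-cKO against control, against the percentage of codons ending in G or C, for the 72 genes tested, with the genes called by unadjusted p named. The 6 increased genes lie at 33.5% to 60% and the 11 decreased genes at 42.5% to 74.1%.

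Position on the genome bears on some of these values, since the sources used here do not say whether reads were counted by strand. In GENCODE M21, exons of 16 of the 76 genes overlap exons of another gene in the table, and 3 of the increased genes are among them. *Cenpp* (chr13:49464025-49652950 in GRCm38.p6) overlaps *Ippk* on the other strand, *Cenpq* (chr17:40920809-40934574) overlaps *Mut*, and *Kif2a* (chr13:106958996-107022355) overlaps *Dimt1*. These positions are from RefSeq, where *Mut* (chr17:40934685-40961990) does not overlap *Cenpq*, so that overlap rests on GENCODE M21 alone. *Ippk* gave 7.48 and 9.29 FPKM in control against 8.01 and 2.20 in *Eef1g*-cKO and was not called. *Mut*, with 4.06 and 5.11 FPKM against 23.1 and 18.0, was itself increased (log2 fold change 1.94, limma adjusted p = 0.0384), and *Dimt1* gave 3.17 and 5.39 FPKM against 15.8 and 8.67 (log2 fold change 1.30, limma adjusted p = 0.132). Depending on the annotation used, reads of *Cenpq* and *Mut*, and of *Kif2a* and *Dimt1*, may therefore have been shared. The levels of the neighbours were below those of *Cenpq* and *Kif2a*. In GENCODE M21 *Kif17* overlaps *Sh2d5* on the same strand, and with that annotation counting by strand would not separate them. Their RefSeq spans (chr4:138262251-138301973 and chr4:138250411-138260968) do not overlap. *Sh2d5* had 38 and 25 reads in control against 0 and 2 in *Eef1g*-cKO, the same *Eef1g*-cKO counts as *Kif17*, and its log2 fold change was -1.98 (limma adjusted p = 0.0994). *Cdca8*, *Cenpt* and *Kif7* also overlap a neighbour, on the other strand, whereas no such overlap was found for *Bub1*, *Bub1b*, *Aurkb*, *Incenp*, *Cenpa*, *Cenpj* or *Plk1*. By RefSeq positions *Cdca8* and its neighbour lie apart.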

How the data were processed

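RPFs of 4 libraries were quantified in 1 deposited table. The authors' FPKM divides the reads of a gene by its length in kb and by the library's counted reads (in units of 10⁶). The authors' normalized counts, a signal in which each library's counts share 1 size factor, were 100% whole multiples of that step (tolerance 0.01), which gave back the reads. The authors' fold changes, standard errors, test scores, p-values and adjusted p-values in the same table were not used. The submitters' processing notes name cutadapt, Bowtie, STAR, mm10 and hg38; the counter and annotation were not given in the sources used here. Genes whose mean over libraries reached 1 FPKM were fitted on log2(FPKM + 1) with limma 3.58.1 (R 4.3.3, trended prior variance) over the whole table, which understates the change of low genes. Alternatives included edgeR 4.0.16, which called 705 genes increased and 904 decreased by adjusted p, and DESeq2 1.42.0, which called 502 and 451. Named genes were every member of the outer kinetochore, checkpoint, Aurora and Polo roles, elsewhere the 3 highest in level and up to 8 called by unadjusted p per role, and up to 5 partners per list called by adjusted p; other genes are named as ends of a range, complex partners or neighbours. Members and lists were chosen with earlier results of these data known. The models were tested on simulated data. Chromosomes and positions come from RefSeq GRCm38.p6 (mm10).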

Additional observations from a re-analysis of the deposited data

How the results depend on the processing

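With 2 libraries per group, adjusted calls were unsteady. Main counts were 6 increased by unadjusted p, and 3 increased and 6 decreased by adjusted p. The increased count by unadjusted p was 3 with pseudocount 5, 2 with the trend on GC3 (codons ending in G or C) removed (chosen after seeing the data), and 2 to 6 leaving out 1 library. By adjusted p, edgeR gave 5 and 10, DESeq2 gave 4 and 6, and pseudocount 0.1 gave 0 and 1. Untrended variance and thinning to the shallowest library each gave 0 and 0. Leaving out 1 library gave 0 to 2 increased and 0 to 11 decreased. The median log2 fold change of -0.21 was -0.15 in edgeR (all genes -0.05), 0.00505 after median centring, -0.46 without the GC3 trend, and -0.34 to -0.21 leaving out 1 library. The ratio of summed reads, 0.816, was 0.890 in summed FPKM. *Eef1g*, at -3.39, was -5.10 with pseudocount 0.1, -3.35 thinned, and -4.82 to -1.96 leaving out 1 library.

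Some uncalled genes changed sign. Leaving out 1 library spread *Birc5* from -0.31 to 0.52, *Mad2l2* from -0.0530 to 0.56, *Cenph* from -0.61 to 0.11, *Nuf2* from -0.32 to 0.0190, *Spc24* from -0.60 to 0.13, *Ttk* from -0.0761 to 0.26 and *Mad2l1bp* from -1.69 to 1.31. Without the GC3 trend *Plk4* was -0.42, *Spc24* 0.22 and *Ttk* -0.35. Median centring gave 0.0613 for *Nuf2*, 0.0428 for *Mad2l1* and 0.0252 for *Mad2l1bp*, which was 0.46 in DESeq2, 0.10 with pseudocount 5 and 0.42 thinned.

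The replicate block, fitted although nothing pairs the libraries by number, gave 4 increased and 9 decreased by adjusted p and the same median, -0.21.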
